A study of Mus musculus with 12 samples.

Results

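Ferroportin, encoded by Slc40a1, and the adult beta-globin chain, encoded by Hbb-b1, were followed in the renal medulla of water-restricted and control mice. The genes were taken by annotation, as every clone whose single gene symbol was Slc40a1 or Hbb-b1, which gave 3 of 15600 clones: 1 for Slc40a1 and 2 for Hbb-b1. Both genes had been picked because they lay apart between the groups on these same arrays, so that contrast is given for them as a description, without a test. Amplified RNA from 3 water-restricted (WR) mice and 3 control (C) mice was hybridised to 12 two-colour arrays on which each WR mouse met each control mouse. Of the 9 pairs of mice, 3 were hybridised in both dye orientations, so each mouse was on 4 arrays. The sources used here do not give the length of the restriction or the strain, sex and age of the mice.

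Ferroportin is the only known iron exporter of vertebrate cells. It moves ferrous iron from enterocytes, iron-recycling macrophages, hepatocytes and renal tubule cells into plasma, and the liver hormone hepcidin binds it and causes its degradation. Beta-globin forms haemoglobin with alpha-globin and heme. Its transcript is made by erythroid precursors and persists in young circulating red cells, so blood in a piece of kidney is one source of it.

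Values are log2 ratios of the 2 channels of an array. On 6 arrays, called WR-546 here, the WR mouse was labelled with Alexa Fluor 546, and on the other 6, called WR-647, with Alexa Fluor 647. The sources used here do not say which dye was the numerator, so the WR-647 ratios had their sign turned to match the WR-546 arrays. A negative value then means lower in WR mice if Alexa Fluor 546 was the numerator, and higher in WR mice if Alexa Fluor 647 was. The 2 genes share whichever reading holds. As deposited, both genes were positive on 6 of 6 WR-647 arrays and negative on 6 of 6 WR-546 arrays. If the authors had already turned the ratios, the difference between the groups would be -0.04 for Slc40a1 and 0.37 for Hbb-b1, which is the dye term described below. Array SDs were 0.515 to 0.764, except 1.21 on the array of WR mouse 2 against control mouse 2.

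Slc40a1 lay on the negative side in every pairing of mice. Where a pair of mice has 2 values in this and the next paragraph, the WR-546 array is given before the WR-647 array. On arrays with control mouse 1 its clone, at spots 21627 and 21628, had -1.28 against WR mouse 1, -1.53 and -0.82 against WR mouse 2, and -1.18 against WR mouse 3. On arrays with control mouse 2 it had -1.06 against WR mouse 1, -0.28 against WR mouse 2, and -1.15 and -0.65 against WR mouse 3. On arrays with control mouse 3 it had -0.97 and -0.63 against WR mouse 1, -0.83 against WR mouse 2 and -1.08 against WR mouse 3. The value nearest to 0 was that of the array with the wide spread, whose 2 spots gave -0.49 and -0.08. The 2 spots were also apart on the array of WR mouse 1 against control mouse 2, at -1.42 and -0.70, while over the 12 arrays they differed by a median of 0.0596, against 0.263 over all clones.

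Hbb-b1 also lay on the negative side on every array, with a wider range. The clone at spots 7881 and 7882 had -0.85 against WR mouse 1, -0.65 and -1.02 against WR mouse 2 and -0.23 against WR mouse 3 on arrays with control mouse 1. With control mouse 2 it had -2.06 against WR mouse 1, -1.01 against WR mouse 2, and -1.31 and -1.70 against WR mouse 3. With control mouse 3 it had -0.61 and -1.15 against WR mouse 1, -0.88 against WR mouse 2 and -0.18 against WR mouse 3. For this clone, all 4 arrays with control mouse 2 were thus beyond -1, which was so on 2 of the other 8.

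The clone of Hbb-b1 at spots 15801 and 15802 ran from -2.46, in WR mouse 1 against control mouse 2, to -0.17, in WR mouse 3 against control mouse 3. Its other arrays with control mouse 2 had -0.66 against WR mouse 2, and -0.83 (WR-546) and -2.20 (WR-647) against WR mouse 3. Not all of its arrays with control mouse 2 were thus beyond -1. The 2 clones differed most for WR mouse 3 against control mouse 1, where the first had -0.23 and the second -1.57. Duplicate spots of these clones differed by medians of 0.0405 and 0.0824, so spots of a clone were closer to each other than the clones were on that array.

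**Figure D1:**
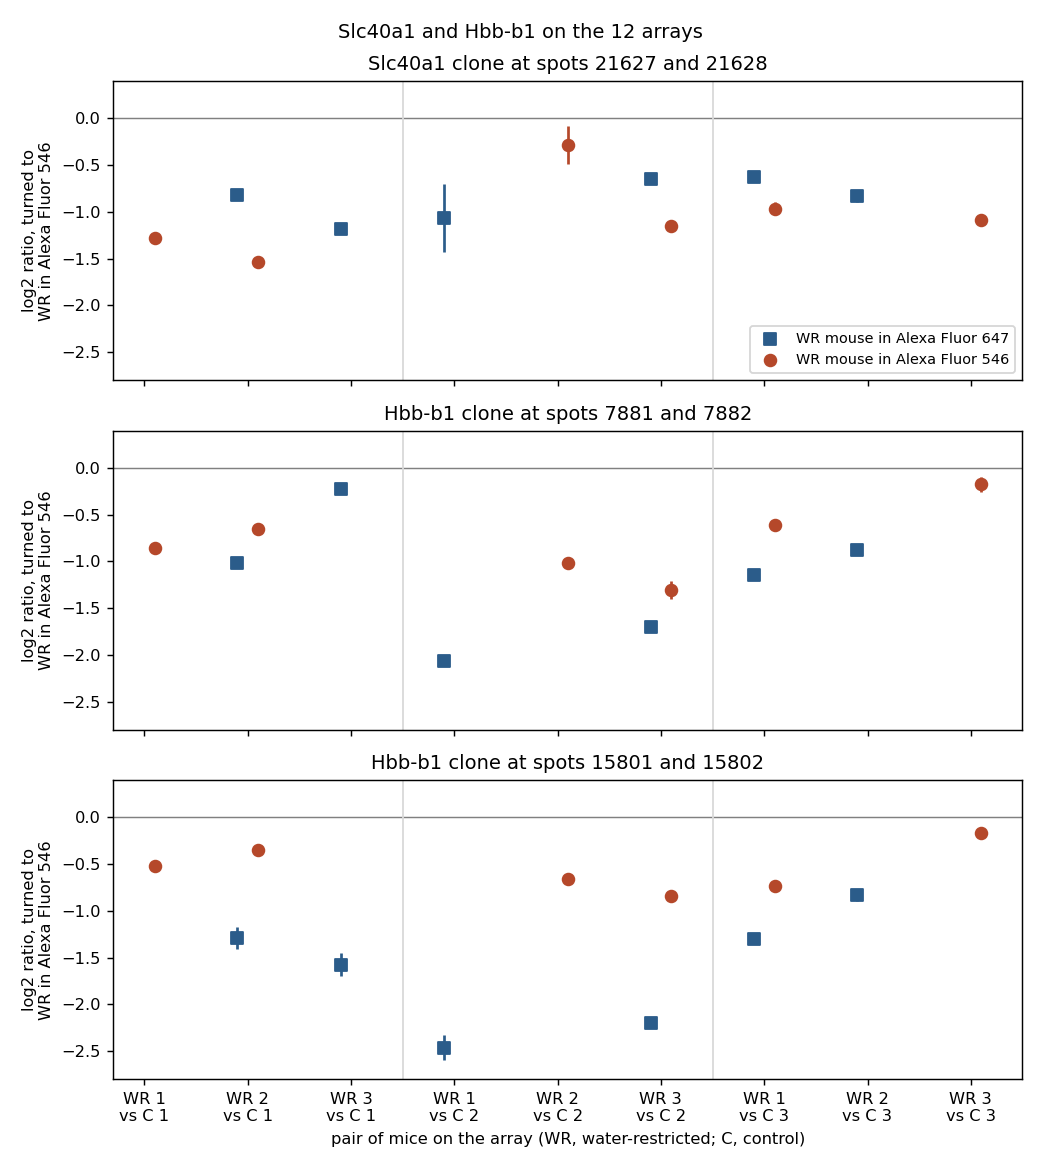
Log2 ratios of the Slc40a1 clone and both Hbb-b1 clones (y axis, turned to match the WR-546 arrays) for the 9 pairs of mice (x axis), with squares for WR-647 arrays, circles for WR-546 arrays, and bars spanning the 2 spots. All points are below 0, and the lowest points of both Hbb-b1 clones, -2.06 and -2.46, are those of WR mouse 1 against control mouse 2.

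A least-squares fit over all 12 arrays gave each mouse a level relative to the mean of the 6 mice. For Slc40a1 the levels were -0.57, -0.29 and -0.58 in WR mice 1, 2 and 3, against 0.74, 0.27 and 0.43 in control mice 1, 2 and 3. For Hbb-b1, averaged over its clones, they were -0.80, -0.34 and -0.36 in the WR mice and 0.31, 1.04 and 0.16 in the control mice. The groups did not overlap for either gene. That order, with all WR levels below all control levels, was found in 3.86% of all 6786 genes, and a negative ratio on 12 of 12 arrays in 0.589%, shares that say nothing of these genes, since they were picked for it.

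The difference, WR minus control, was -0.96 for Slc40a1 (SE 0.18, n = 3 mice per group), a 1.94-fold separation of the groups, and -0.999 for Hbb-b1 (SE 0.25), a 2.00-fold one. By limma, 0 of 6786 genes (0%) passed an adjusted p of 0.05 in this contrast, and 337 (4.97%) had an unadjusted p under 0.05. Fits that take the 9 pairs of mice as replicates or the mice as random effects called 164 and 116 genes. The 9 pairs are made from the same 3 WR and 3 control mice, so they are not independent replicates. The random-effects fit takes 1 ratio of variance between mice to variance between arrays, 0.12, for all genes. It can thus understate the error of genes whose mice differ more than that. For Hbb-b1 the difference was -1.39 on WR-647 arrays alone and -0.66 on WR-546 arrays alone.

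The mouse with the most positive level was not the same for both genes. For Slc40a1 it was control mouse 1, and for Hbb-b1 control mouse 2. The sign of a level is as open as that of the ratios: with Alexa Fluor 647 as the numerator, all levels change sign and the most positive mouse is the one with the lowest RNA level. Had the ratios already been turned, the Slc40a1 levels would be -0.11, 0.08 and -0.03 in the WR mice and 0.13, -0.19 and 0.12 in the control mice. The Hbb-b1 levels would be 0.43, -0.07 and 0.20 in the WR mice and 0.01, -0.43 and -0.13 in the control mice, with control mouse 2 the most negative. Within groups the SD of the levels was 0.16 in WR mice and 0.24 in control mice for Slc40a1, and 0.26 and 0.47 for Hbb-b1. Differences between mice of the same group, a contrast that did not choose the genes, were tested with limma's F-test against the error between arrays, which called 28 genes (0.413%), or 14 (0.206%) with equal weights for all arrays. Slc40a1 had F = 1.37 (adjusted p = 0.493) and Hbb-b1 F = 9.53 (adjusted p = 0.107). Neither passed. Without the array of WR mouse 2 against control mouse 2, Hbb-b1 passed (F = 14.1, limma adjusted p = 0.0414), in a fit that called 159 genes.

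**Figure D2:**
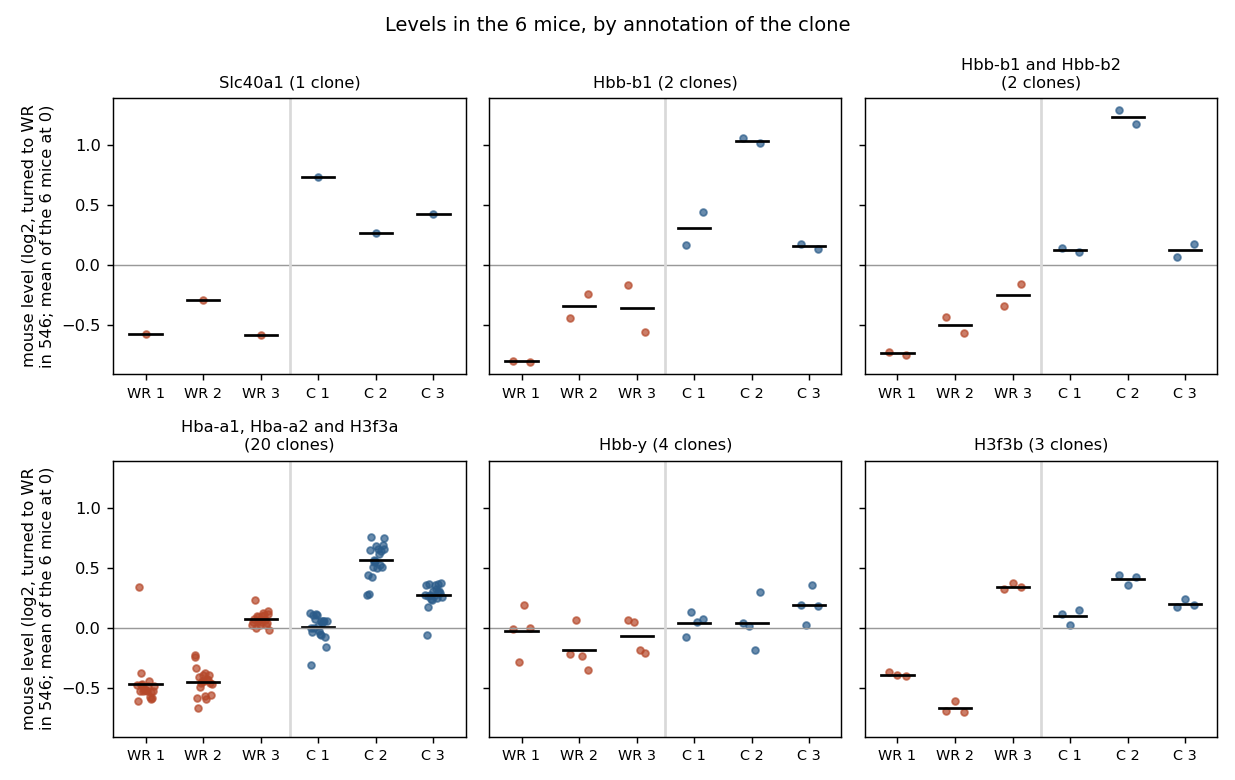
Fitted levels of the 6 mice (x axis, WR mice left of control mice; y axis in log2 with the mean of the mice at 0, turned to match the WR-546 arrays) for clones grouped by their annotation, each dot a clone and each bar the mean over clones. On this scale, whose sign is open, control mouse 2 is the most positive for Hbb-b1 at 1.04 and for the clones of Hbb-b1 and Hbb-b2 at 1.23, and control mouse 1 for Slc40a1 at 0.74.

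The Hbb-b1 values lay further apart between the dye orientations than the Slc40a1 values did. Slc40a1 averaged -0.86 ± 0.22 on WR-647 arrays and -1.05 ± 0.42 on WR-546 arrays (SD, n = 6 arrays each). Hbb-b1 averaged -1.39 ± 0.58 on WR-647 arrays and -0.66 ± 0.30 on WR-546 arrays. The dye term is the amount that the fit adds to a WR-546 ratio and takes from a WR-647 ratio. It was 0.37 for Hbb-b1 as a gene, where 11.3% of genes passed, or 6.62% with equal weights for all arrays, where Hbb-b1 passed too (limma adjusted p = 0.0241). By clone, it was -0.04 for Slc40a1 (SE 0.10, limma adjusted p = 0.835), 0.20 for the Hbb-b1 clone at spots 7881 and 7882 (SE 0.09, adjusted p = 0.195) and 0.55 for that at spots 15801 and 15802 (SE 0.08, adjusted p = 0.0132). The last passed the threshold, as did 6.76% of all clones, or 3.38% with equal weights for all arrays, where it passed too (adjusted p = 0.0239). It did not pass with the swapped pairs alone (adjusted p = 0.244). In that fit Slc40a1 had -0.26 (SE 0.11, limma adjusted p = 0.335). The clone at spots 7881 and 7882 had 0.22 (SE 0.11, adjusted p = 0.388). Without the array of WR mouse 2 against control mouse 2, Slc40a1 had -0.14 (SE 0.08, limma adjusted p = 0.299).

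In the 3 swapped pairs, the same RNA was read in both orientations. Slc40a1 had -0.63 on the WR-647 array and -0.97 on the WR-546 array for WR mouse 1 and control mouse 3, -0.82 and -1.53 for WR mouse 2 and control mouse 1, and -0.65 and -1.15 for WR mouse 3 and control mouse 2. The Hbb-b1 clone at spots 15801 and 15802 had -1.30 and -0.73, -1.29 and -0.35, and -2.20 and -0.83 in the same order. Slc40a1 was thus further from 0 on the WR-546 array in 3 of 3 pairs, and Hbb-b1 on the WR-647 array in 3 of 3, while no value of either changed sign.

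**Figure D3:**
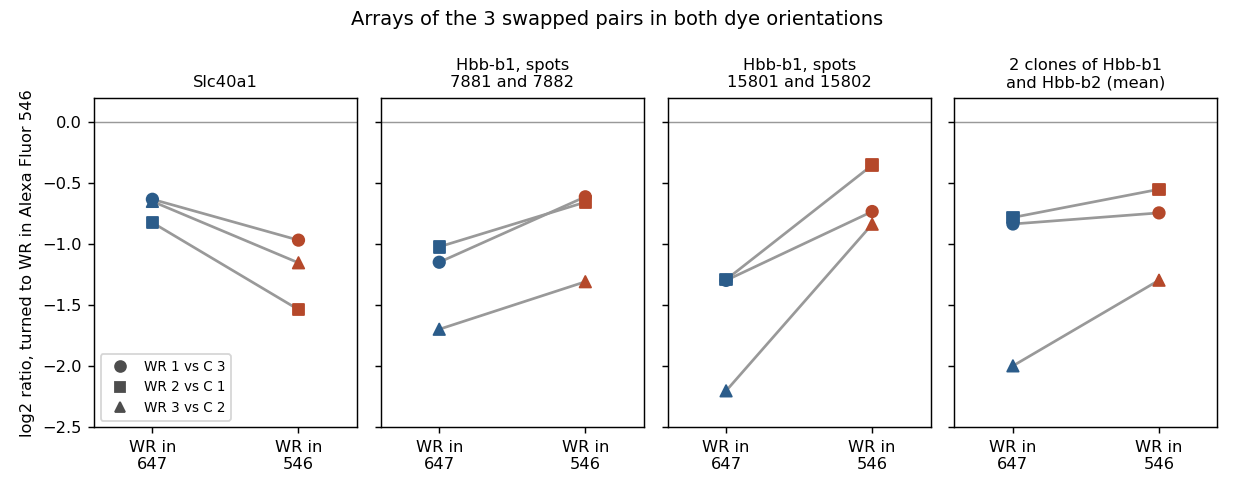
Log2 ratios (y axis, turned to match the WR-546 arrays) of the 3 swapped pairs, with the WR-647 array on the left and the WR-546 array on the right of each panel, and lines joining arrays of the same mice. The Hbb-b1 clone at spots 15801 and 15802 shows the widest gap, -2.20 against -0.83 for WR mouse 3 and control mouse 2.

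Other globin clones on the array were compared with Hbb-b1. Beta-globin genes have near-identical copies, so a cDNA clone can take up transcript of more than 1 of them. There were 2 clones annotated to both Hbb-b1 and Hbb-b2, a second adult beta-globin gene, and these are assigned to neither. Their mean levels were -0.73, -0.50 and -0.25 in the WR mice and 0.13, 1.23 and 0.12 in the control mice, and the difference was -0.998 (SE 0.32) for one and -0.98 (SE 0.30) for the other. In all 4 adult beta-globin clones control mouse 2 and WR mouse 1 were at opposite ends, control mouse 2 at the positive one. With Alexa Fluor 647 as the numerator these ends change places, and had the ratios already been turned the means of the 2 shared clones would be 0.35 in WR mouse 1 and -0.24 in control mouse 2. Their dye terms were 0.18 and 0.08, which did not pass (limma adjusted p = 0.173 and 0.531). Neither did their F between mice of the same group (limma adjusted p = 0.0672 and 0.0904), a test that called 0.385% of clones.

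Hbb-y, the embryonic beta-like globin of the same gene cluster, had 4 clones. Its levels were -0.03, -0.18 and -0.07 in the WR mice and 0.04, 0.04 and 0.19 in the control mice. The difference was -0.19 (SE 0.14, limma adjusted p = 0.996), and 8 of 12 arrays were negative, so it did not pass. Hba-x, the embryonic alpha-like globin, had 1 clone, with a difference of -0.24 (SE 0.24).

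Adult alpha-globin could not be read as a single gene. The annotation gave 20 clones to Hba-a1, Hba-a2 and H3f3a, a histone gene, together. Their mean levels were -0.47, -0.45 and 0.07 in the WR mice, against 0.01, 0.56 and 0.27 in the control mice, so WR mouse 3 overlapped with the control mice. Of the 20 clones 19 had a negative difference and 18 an unadjusted p under 0.05, against 3.74% of all clones, and none passed after adjustment (smallest limma adjusted p = 0.999). These clones are not independent, as they are read from the same mice and share an annotation. The clone that departed, at spots 2097 and 2098, had 0.06 (SE 0.23), and the other 19 ran from -0.69 to -0.45. On the mean of the 20, control mouse 2 was the most positive, as for Hbb-b1, or the most negative with Alexa Fluor 647 as the numerator. Had the ratios already been turned, control mouse 1 would be the most positive at 0.24 and control mouse 3 the most negative at -0.38. H3f3b, a related histone gene with 3 clones, had -0.39, -0.66 and 0.34 in the WR mice and 0.10, 0.41 and 0.20 in the control mice. Its difference was -0.47, against -0.56 for the mean of the 20 clones. WR mouse 3 was thus positive on the means of H3f3b and of the 20 clones, and negative for all 4 adult beta-globin clones. Had the ratios already been turned, WR mouse 3 would be at -0.26 for H3f3b and -0.05 for the 20 clones. It would be at 0.20 on the mean of the Hbb-b1 clones and 0.09 on that of the clones shared with Hbb-b2.

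In the list of red cell transcripts, 13 of 32 genes were measured. Apart from Hbb-b1, 6 were negative and 6 positive, with a median difference of -0.06, against 0.00337 over all genes, and 0 passed. Clones annotated to several genes are not counted, which leaves out the clones shared with Hbb-b2 and those of adult alpha-globin. Tfrc and Fech, counted here as positive, belong to the iron transport and heme synthesis lists too. Slc4a1, the anion exchanger band 3 of red cells, which a shorter form also places in intercalated cells of the collecting duct, had levels of -0.60, -0.11 and -0.40 in the WR mice and 0.20, 0.06 and 0.86 in the control mice. Its difference was -0.74 (SE 0.24, limma adjusted p = 0.771), with 10 of 12 arrays negative, or 0.55 had the ratios already been turned. Control mouse 3 was the most positive for it, where control mouse 2 was for Hbb-b1. Had the ratios already been turned, WR mouse 2 would be the most positive for Slc4a1 at 0.67, with control mouse 3 at 0.03. Differences of Slc4a1 between mice of the same group did not pass (F = 4.38, limma adjusted p = 0.213). Of the rest, 9 genes, among them Hbb-y, Hba-x, Alas2, the erythroid enzyme of heme synthesis, and Gata1, the erythroid transcription factor, ran from -0.24 to 0.46. A different number of red cells in the tissue and a different amount of RNA per red cell cannot be told apart in such bulk RNA, whichever way the ratios run. Ratios give no absolute level, so it could not be checked whether defining markers were near 0, and the part of blood content in the Hbb-b1 values was not tested.

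Slc40a1 had the most negative difference of the measured iron transport genes, a rank that follows from its having been picked for this contrast. Of 17 listed genes 7 were measured, and apart from Slc40a1, 4 were positive and 2 negative, with a median of 0.06. Tfrc, the transferrin receptor, which takes up iron, had 0.33 (SE 0.19, limma adjusted p = 0.996), with levels of 0.23, 0.20 and 0.07 in the WR mice and 0.16, -0.17 and -0.49 in the control mice. The other 5, which were the ferrous iron importer Slc11a2, the zinc and iron transporters Slc39a14 and Slc39a8, the ferroxidase Cp and the mitochondrial iron importer Slc25a37, ran from -0.06 to 0.36.

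Iron storage and iron sensing genes showed differences smaller than that of Slc40a1, which had been picked for a large one. Of 8 storage genes 5 were measured, with a median of 0.03. They included Fth1, the ferritin heavy chain, at 0.16 (SE 0.18), and Pcbp1, which delivers iron to ferritin, at 0.07 (SE 0.16). Of 14 genes of iron sensing and the hepcidin pathway 5 were measured, with 3 positive and a median of 0.07. Aco1, the iron-regulatory protein that binds ferritin and ferroportin transcripts, had 0.38 (SE 0.18), and Neo1, or neogenin, had -0.27 (SE 0.18).

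Genes of heme synthesis and heme breakdown were on both sides. Of 11 synthesis genes 10 were measured, 7 of them positive, with a median of 0.11. Alas1, the rate-limiting enzyme outside red cells, had 0.51 (SE 0.20, limma adjusted p = 0.915), and was the only one of these with an unadjusted p under 0.05. It passed where the 9 pairs of mice were taken as replicates (limma adjusted p = 0.0434), though these pairs share mice and are not independent. Fech, which inserts iron into the ring, had 0.31 (SE 0.19). Of 18 genes of heme breakdown and scavenging 10 were measured, 5 positive and 5 negative, with a median of 0.01. The heme oxygenases Hmox1 and Hmox2, which release iron from heme, had 0.37 (SE 0.17) and 0.27 (SE 0.14). Of 14 iron-sulfur cluster genes 4 were measured, with a median of 0.18, among them Glrx5 at 0.27 (SE 0.14) and Isca1 at 0.35 (SE 0.25), both assembly factors. By limma, 0 of the 70 measured genes of all lists other than Slc40a1 and Hbb-b1 passed. With the 9 pairs, which share mice, as replicates 7 did, against 164 of all 6786 genes. With mice as random effects, and 1 variance ratio for all genes, 6 did, against 116 of all 6786 genes. All of these but Alas1 were markers of proximal tubule or principal cells. The lists were chosen with earlier results of these data known, so these counts say nothing of the lists.

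**Figure D4:**
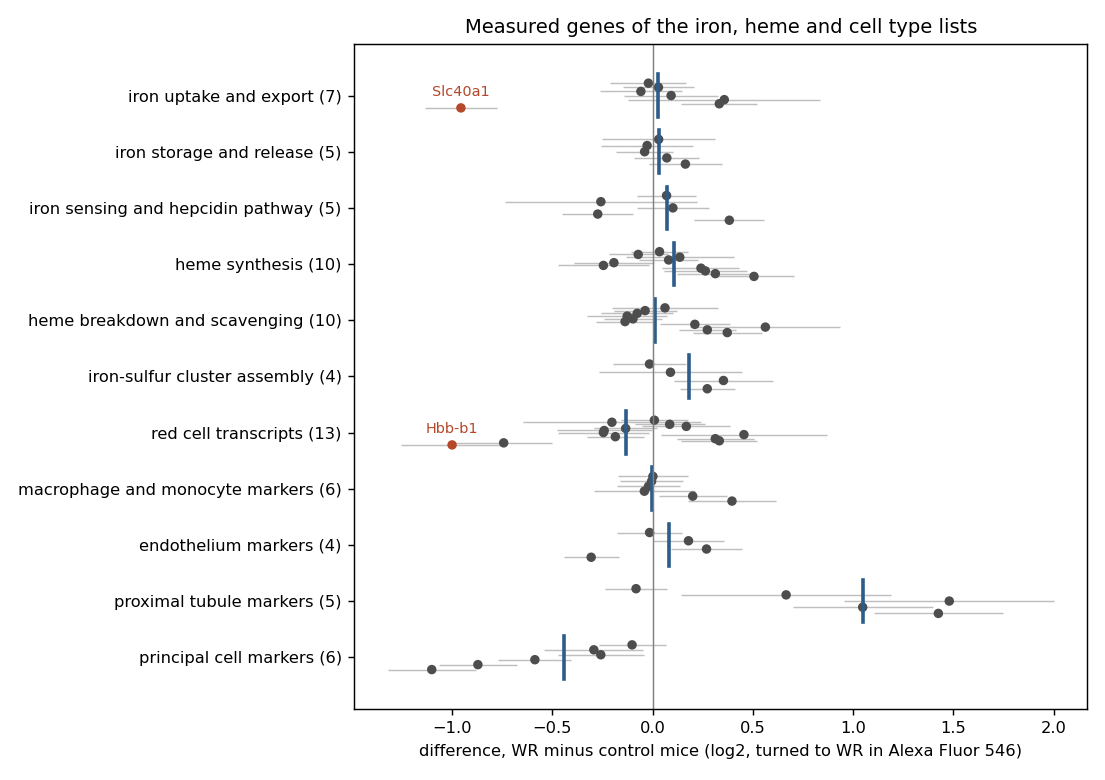
Differences, WR minus control mice (x axis, log2, turned to match the WR-546 arrays), for the measured genes of each list (rows, number measured in parentheses), with 1 SE as a bar and the list median as a vertical line. Slc40a1 at -0.96 lies apart from the other 6 measured genes of iron uptake and export, which run from -0.06 to 0.36. Hbb-b1 at -0.999 is followed in its list by Slc4a1 at -0.74. Both members had been picked for this contrast, so their place in their lists follows from the choice.

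Markers of other cell types were read beside both genes. Ferroportin is known from macrophages and from proximal tubule. Of 25 macrophage and monocyte markers 6 were measured, with 3 positive, 3 negative and a median of -0.00142. The mean level of the list ran from 0.04 to 0.06 in the WR mice and from -0.11 to 0.07 in the control mice. Lyz2, a lysozyme, had 0.40 (SE 0.22) and C1qb, a complement subunit, 0.20 (SE 0.17). Of 17 endothelium markers 4 were measured, with a median of 0.08, among them the urea transporter Slc14a1 at -0.31 (SE 0.14) and the junction protein Esam at 0.27 (SE 0.18). The list's mean level ran from 0.01 to 0.03 in the WR mice and from -0.13 to 0.12 in the control mice.

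On the turned scale, most measured proximal tubule markers lay on the side opposite to Slc40a1, and principal cell markers on the same side. Over all 6786 genes, 3442 differences were positive and 3344 negative. Of 24 proximal tubule markers 5 were measured, 4 of them positive, with a median of 1.05 and a list mean of 0.39, 0.43 and 0.54 in WR mice 1, 2 and 3 and of 0.22, -0.92 and -0.66 in control mice 1, 2 and 3. Control mouse 2, the most positive for Hbb-b1, was thus the furthest from 0 here, on the opposite side. Of the 5 markers 2 passed the within-group F-test, which called 0.413% of all genes. They were Gatm, which makes the creatine precursor (limma adjusted p = 0.000361), and the organic anion transporter Slc22a7 (limma adjusted p = 0.0105). Gatm had 0.65, -1.44 and -1.43 in control mice 1, 2 and 3, and Slc22a7 had 0.91, -1.23 and -0.68. These 2 genes were chosen after their values were seen. Miox, or inositol oxygenase, had 1.43 (SE 0.32), and Lrp2, the endocytic receptor megalin, 1.05 (SE 0.35). Of 17 principal cell markers 6 were measured and all 6 were negative, with a median of -0.44 and a list mean of -0.29 to -0.23 in the WR mice and of 0.12 to 0.46 in the control mice. Fxyd4, a regulator of the sodium pump, had -1.10 (SE 0.22), and the keratin Krt18 had -0.87 (SE 0.19). Had the ratios already been turned, Miox would have 0.18, Lrp2 -0.02, Fxyd4 0.06 and Krt18 0.56. The part of these markers in the Slc40a1 and Hbb-b1 values was not tested. Of 10 markers of the thick ascending limb 0 were measured.

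The genes closest to each member were found by the root mean square difference of their log2 ratios over the 12 arrays. For Slc40a1 these were Trim61 at 0.350, the desmosome-linked protein periplakin, Ppl, at 0.362, the growth factor Pdgfa at 0.458, Bex1 at 0.491 and the non-coding RNA Gas5 at 0.507, against a median of 1.12 over all genes. For Hbb-b1 they were Got2, the mitochondrial aspartate aminotransferase, at 0.302, Tmsb4x, or thymosin beta 4, at 0.429, Krt18 at 0.468, Fxyd4 at 0.499 and Pdgfa at 0.535, against a median of 1.24. Control mouse 2 was the most positive for Got2 as for Hbb-b1, with levels of -0.66, -0.16 and -0.36 in the WR mice and 0.20, 0.91 and 0.08 in the control mice. Control mouse 1 was the furthest from 0 for Trim61, at 0.89, as for Slc40a1. Slc40a1 and Hbb-b1 differed from each other by 0.725, so that Hbb-b1 was the 113th closest gene to Slc40a1, and Slc40a1 the 32nd closest to Hbb-b1. The closest genes were chosen for their likeness on these same arrays, so the mice they share with a member follow from the choice. All points share mice and arrays, and the likeness has no test.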

How the data were processed

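The deposited log2 ratios cover 31200 spots on each of 12 arrays and are complete; base 2 was inferred, as the values are signed and no log base is stated. The sources used here do not give scanner signals, background correction or normalization, so signal over background could not be examined, and the number of arrays limits the precision. Adjacent spots carried the same clone and were averaged. Platform annotation gave 1 gene to 9191 clones, several to 254 and none to 6155, and the symbols of 9085 clones were looked up by Entrez identifier in a RefSeq gene table. Clones were averaged to 6786 genes.

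Mouse levels came from weighted least squares with a dye term, arrays of a swapped pair weighing 0.5 each. Levels of 3 against 3 mice were compared with limma 3.58.1 in R 4.3.3 (lmFit, eBayes) with Benjamini-Hochberg adjustment over all genes or clones at 0.05. The dye term and the within-group F-test were fitted on array values with the same weights. The labels name no batch. The steps were also run on simulated data with 1 mouse SD for all genes, unlike these data, and no result here rests on that run. Genes named by rule were Slc40a1, Hbb-b1 and their globin relatives, the 2 measured genes of smallest p of each list, and the 5 closest to each member. Outside that rule, H3f3b was read beside the alpha-globin clones, and Gatm and Slc22a7 were added after their values were seen. Some other genes of the iron transport and red cell lists were named only as part of a range. The members and lists were chosen with earlier results of these data known. Alternatives are given in the closing section.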

Additional observations from a re-analysis of the deposited data

Results flagged for a closer look

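The difference between dye orientations of Hbb-b1, as the dye term of the gene, was 0.37 (SE 0.07, limma adjusted p = 0.0158), and 11.3% of all genes passed that test, or 6.62% with equal weights for all arrays.

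WR-546 and WR-647 are the arrays with the WR mouse in that dye. In 62 groups of 6 arrays of 1 dye orientation, 8 held an array far from the rest, none of them for Slc40a1 or Hbb-b1. Chance gives about 1 in 20. Among WR-546 arrays, that of WR mouse 2 against control mouse 2 gave 1.15 for Hmox2 (next 0.63) and 0.60 for Esam (next 0.15). Among WR-647 arrays, WR mouse 3 against control mouse 2 gave -0.74 for Slc4a1 (next -1.24) and -1.78 for Tmsb4x (next -1.10). WR mouse 3 against control mouse 1 gave 1.12 for Esam (next 0.33) and 2.32 for Miox (next 1.19). WR mouse 2 against control mouse 1 gave -0.39 for Isca1 (next 0.12) and -1.08 for Slc14a1 (next -0.63).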

How the results depend on the processing

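The difference of Slc40a1 ran from -1.06 to -0.83 and that of Hbb-b1 from -1.39 to -0.66 over 21 alternatives other than the reading of the ratios as already turned, under which they were -0.038 and 0.37. Without 1 mouse at a time they ran from -1.06 to -0.83 and from -1.17 to -0.73. Hbb-b1 had -1.39 on WR-647 arrays. With the mouse number as a replicate block the differences were -0.96 and -0.999 and 0 genes passed. Deviations of same-numbered mice correlated across genes at -0.01, -0.54 and -0.11, and those of other pairs at -0.50 to 0.50. The levels come from shared arrays, so these correlations cannot decide whether the numbers pair the mice. The main fit did not pair them. The count of genes past the threshold between the groups was 0, but 1 on WR-647 arrays and 1 with the swapped pairs alone. It was 164 with 9 pairs, which share mice, as replicates and 116 with random mouse effects, a fit that takes 1 variance ratio for all genes. In these last 2 fits, 7 and 6 of the 70 other listed genes passed. Between mice of the same group 28 genes passed, but 14 with equal weights, 6 without the dye term, 0 as already turned, 6 on WR-647 and 0 on WR-546 arrays, 13 and 14 on first and second spots, 159 without the array of WR mouse 2 against control mouse 2, and 0 to 11 without 1 mouse. Hbb-b1 passed there without that array (F = 14.1). The dye term of the Hbb-b1 clone at spots 15801 and 15802 was 0.48 with the swapped pairs alone and no longer passed. Equal weights for it were tried after seeing the data and kept the call. The dye term of Slc40a1 was -0.26 with the swapped pairs alone and -0.14 without the array of WR mouse 2 against control mouse 2. Read as already turned, signs changed for Pcbp1 (-0.19), Aco1 (-0.28), Neo1 (0.035), Hmox1 (-0.019), Slc4a1 (0.55), C1qb (-0.10), Slc14a1 (0.30), Esam (-0.067), Lrp2 (-0.018), Fxyd4 (0.059), Krt18 (0.56), Ppl (0.13), Pdgfa (0.31), Bex1 (0.016), Got2 (0.47) and Tmsb4x (0.28). On WR-546 arrays they changed for Pcbp1 (-0.072) and Slc14a1 (0.017), and on WR-647 arrays for Hmox2 (-0.11). The cause was not tested, apart from that of the already turned reading, which by construction gives the dye term. The F-test cannot be made with pairs as replicates or with swapped pairs alone.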
